A study of Mus musculus with 12 samples.

Results

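Transcripts of 7 genes of radial glia were followed through 12 libraries of an RNA immunoprecipitation experiment: Nes, Vim, Fabp7, Slc1a3, Ptprz1, Sox2 and Sox9. They were chosen by symbol, as genes known to mark radial glia and other neural stem cells, and they are 7 of the 52550 genes in the count table. The study pulled RNA down with an antibody to Ythdf1 or to Ythdf2 (the IP libraries) and sequenced it beside the RNA before the pull-down (the input), from C57BL/6 wild type mice, cortex at embryonic day 12.5 and retina at postnatal day 0. Each of the 6 groups (input, Ythdf1 IP and Ythdf2 IP in each tissue) has 2 libraries. An IP with an unrelated antibody was not analysed here, so IP over input is not corrected for RNA that binds the beads or the antibody unspecifically. The labels do not say whether replicates came from separate animals or litters, and the p-values measure only the spread between these libraries, which may be technical. The cortex baseline was cortex input replicate 2 alone, and cortex input replicate 1 is described apart.

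Radial glia are the stem cells of the developing cortex: their cell bodies line the ventricle, their long process spans the wall of the brain, and they divide to give neurons directly or by way of intermediate progenitors. In the retina most of the same genes are used by the progenitors and later by Müller glia, the radial glia of the mature retina. Nestin (Nes) and vimentin (Vim) build the intermediate filaments of these cells, Fabp7 (brain lipid binding protein) carries fatty acids, Slc1a3 (GLAST) takes up glutamate, Ptprz1 is a receptor tyrosine phosphatase bound by pleiotrophin and midkine, and Sox2 and Sox9 are transcription factors of the stem cell state. Ythdf1 and Ythdf2 are m6A readers: they sit in the cytoplasm and bind mRNAs at methylated adenosines (N6-methyladenosine, m6A). Ythdf2 is known for promoting the decay of bound mRNAs and Ythdf1 for promoting their translation.

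The m6A mark sits in a short consensus, of which GGACT is a common form, and often lies near the stop codon. GGACT was therefore searched on the transcript strand only in 1 representative transcript per gene (GENCODE M21 on GRCm38, the build the files use). Of 21664 coding transcripts, 87.2% hold GGACT at least once, with a median of 1.02 per kilobase. All 7 genes hold it, from 1 copy in Fabp7 through 2 in Vim, 3 each in Slc1a3, Sox2 and Sox9 and 7 in Ptprz1 to 11 in Nes. The 4 whose copy nearest the end of the coding sequence lies in the 3′ UTR are shown, with GGACT in capitals, because Fabp7 and Sox2 are among the members that were lower in an IP and Nes and Sox9 are not.
Fabp7: gaagagatgacaGGACTtttgacaacttg
Nes: ctctggcactgaGGACTtagtggggggtg
Sox2: catgtgagggctGGACTgcgaactggaga
Sox9: ccctgcctgtttGGACTttgtaattattt
The Fabp7 copy starts 15 bases after the last coding base (window chr10:57788173-57788201, plus strand). The Nes copy starts 25 bases after it (chr3:87980040-87980068, plus strand), the Sox2 copy 9 bases after it (chr3:34651369-34651397, plus strand) and the Sox9 copy 368 bases after it (chr11:112785863-112785891, plus strand). The nearest copies of Vim, Slc1a3 and Ptprz1 lie in the coding sequence. These are matches of letters: m6A was not measured in the files used here.

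In GRCm38 the genes lie at chr3:87971078-87980451 (Nes), chr2:13573927-13582826 (Vim), chr10:57784881-57788450 (Fabp7), chr15:8634124-8710764 on the minus strand (Slc1a3), chr6:22875502-23052916 (Ptprz1), chr3:34650405-34652461 (Sox2, a single exon) and chr11:112782224-112787760 (Sox9), all but Slc1a3 on the plus strand. Sox2 lies inside an intron of the long noncoding gene Sox2ot on the same strand, with 0 shared exon bases. Slc1a3 likewise overlaps the unclassified gene Gm37310 with 0 shared exon bases and at most 50 counts of Gm37310 in any library. Their representative transcripts run from 804 bases (Fabp7) through 2057 (Sox2), 2193 (Vim), 4135 (Sox9), 4163 (Slc1a3) and 6126 (Nes) to 8068 (Ptprz1), against a median of 2583 for coding genes. Fabp7 is thus at percentile 7.11 of transcript length and Ptprz1 at percentile 96.1.

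Library totals ran from 19530226 to 40515980 counts, of which protein-coding genes held 8.37% to 41.1% in 11 libraries and 4.65% in cortex input replicate 1. Levels are given as CPM after TMM scaling of the 11 libraries (normalised CPM), on which 3 counts correspond to between 0.0326 and 0.184. The tissue labels were checked on marker genes. Summed markers of retinal progenitors stood at 4916 to 8609 protein-coding CPM (counts scaled to the sum over protein-coding genes) in the 6 retina libraries and 786 to 1172 in the 5 cortex libraries of the model. Emx2, a cortical patterning factor, had 507 to 7295 counts in those 5 and at most 3 in any retina library. The library labelled cortex input replicate 1 went against its label. Its summed markers of mature excitatory synapses stood at 10466 protein-coding CPM against 114 in cortex input replicate 2, its oligodendrocyte markers at 7852 against 128, and its genes of dividing cells at 55.5 against 2725.

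The 7 genes themselves were also arranged differently in that library. In cortex input replicate 2, in protein-coding CPM, Nes stood at 1404, Vim at 594, Sox9 at 270, Sox2 at 249, Ptprz1 at 220, Fabp7 at 147 and Slc1a3 at 117. In the library labelled cortex input replicate 1, Slc1a3 stood at 998 and Ptprz1 at 637, both above replicate 2. Nes at 86.5, Sox9 at 54.3, Vim at 52.5, Fabp7 at 44.1 and Sox2 at 18.5 were all below it. Slc1a3 and Ptprz1 are also used by astrocytes and by oligodendrocyte precursors of the mature brain, and the summed markers of Müller glia and astrocytes stood at 5799 in that library against 303 in replicate 2; their part in the order of the members was not tested.

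**Figure D1:**
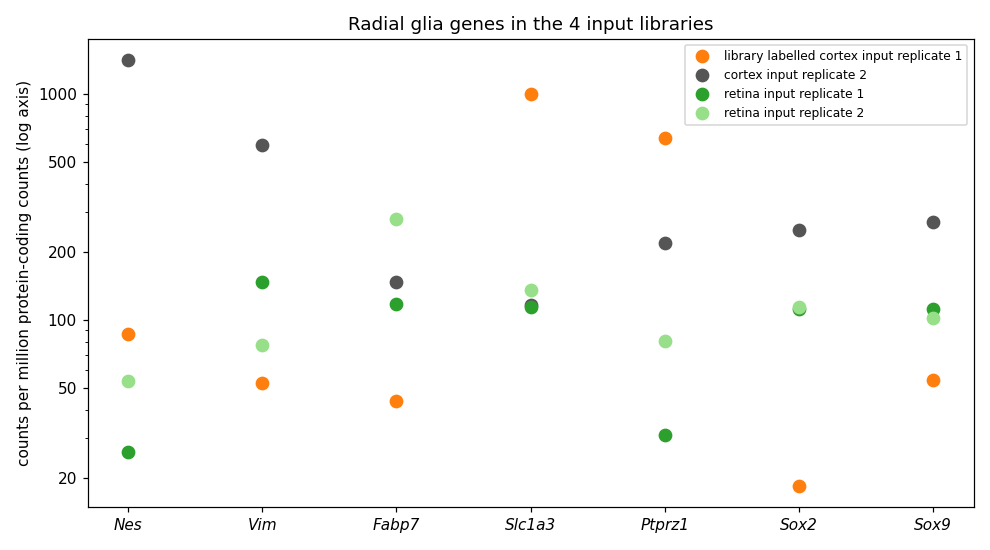
Protein-coding CPM of the 7 genes (log axis) in the 4 input libraries, 1 point per library. The library labelled cortex input replicate 1 (orange) is above cortex input replicate 2 (dark grey) for Slc1a3 and Ptprz1 and below it for the other 5, and both retina inputs (green) are below cortex input replicate 2 for Nes, Vim, Ptprz1, Sox2 and Sox9.

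Before the pull-down, 5 of the 7 genes were lower in the retina at birth than in the embryonic cortex, and Fabp7 and Slc1a3 did not pass the test. Nes was far the most different, at 4.21 and 9.01 normalised CPM in the retina inputs against 244 in the cortex input. Vim stood at 23.8 and 12.9 against 103, and Ptprz1 at 5.003 and 13.4 against 38.3. For these genes both retina inputs were below the cortex input, although the retina inputs also differed from each other. Sox2, at 18.04 and 19.2 against 43.3, and Sox9, at 18.1 and 17.1 against 47.0, were close together in the retina inputs. The fitted log2 differences, retina minus cortex, were -5.21 for Nes (SE 0.52, edgeR adjusted p = 9.16e-06), -2.50 for Vim (SE 0.53, adjusted p = 0.00423), -2.05 for Ptprz1 (SE 0.45, adjusted p = 0.00453), -1.42 for Sox9 (SE 0.37, adjusted p = 0.0130) and -1.22 for Sox2 (SE 0.37, adjusted p = 0.0276). Of all 20278 genes tested, 11.1% were called lower in the retina input and 8.82% higher. Slc1a3 stood at 18.3 and 22.7 in the retina inputs and 20.3 in the cortex input, a log2 difference of 0.01 with a 95% interval from -0.73 to 0.75. Fabp7 stood at 18.9 and 46.5 against 25.5, so the retina inputs lay on both sides of the cortex input (log2 difference 0.36, adjusted p = 0.682). In these bulk samples fewer radial glia and less RNA of a gene per cell cannot be told apart, nor can tissue and age. The cortex has 1 library here, assumed to vary like the other groups, and the Sox2 call was lost when any 1 of the 4 retina IP libraries was left out. With the library labelled cortex input replicate 1 as the baseline, Nes (log2 -1.49) and Ptprz1 (-3.90) were called lower, Vim and Sox9 were not called, and Sox2 turned to 2.23. On that baseline Slc1a3 was called lower (-3.38) and Fabp7 higher (1.78).

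Per length, the order of the genes also differed between the tissues. The authors' FPKM values divide by gene length and allow genes to be compared within a library, in an order that rests on the length used. In cortex input replicate 2 they imply about 5071 bases for Vim, 9171 for Slc1a3 and 15246 for Ptprz1. The representative transcripts of these genes are much shorter, at 2193, 4163 and 8068 bases. For Nes, Sox2 and Sox9 the implied 6881, 2207 and 4435 bases were nearer to theirs (6126, 2057 and 4135). An order by representative transcript was not computed. In cortex input replicate 2, Nes led with 83.9 FPKM, followed by Vim at 48.2, Sox2 at 46.4 and Fabp7 at 45.1, then Sox9 at 25.0, Ptprz1 at 5.93 and Slc1a3 at 5.24. Vim, Sox2 and Fabp7 were close together, and a single library cannot rank them. In both retina inputs Fabp7 led with 9.25 and 24.7 FPKM and Sox2 was next with 5.35 and 6.15. Nes, at 0.398 and 0.924, and Ptprz1, at 0.213 and 0.623, were the lowest of the 7 in both. Sox9, Vim and Slc1a3 lay between 1.30 and 3.06, and Vim and Sox9 changed places between the replicates. Together the 7 genes held 0.300% of protein-coding counts in cortex input replicate 2 and 0.0660% and 0.0843% in the retina inputs.

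**Figure D2:**
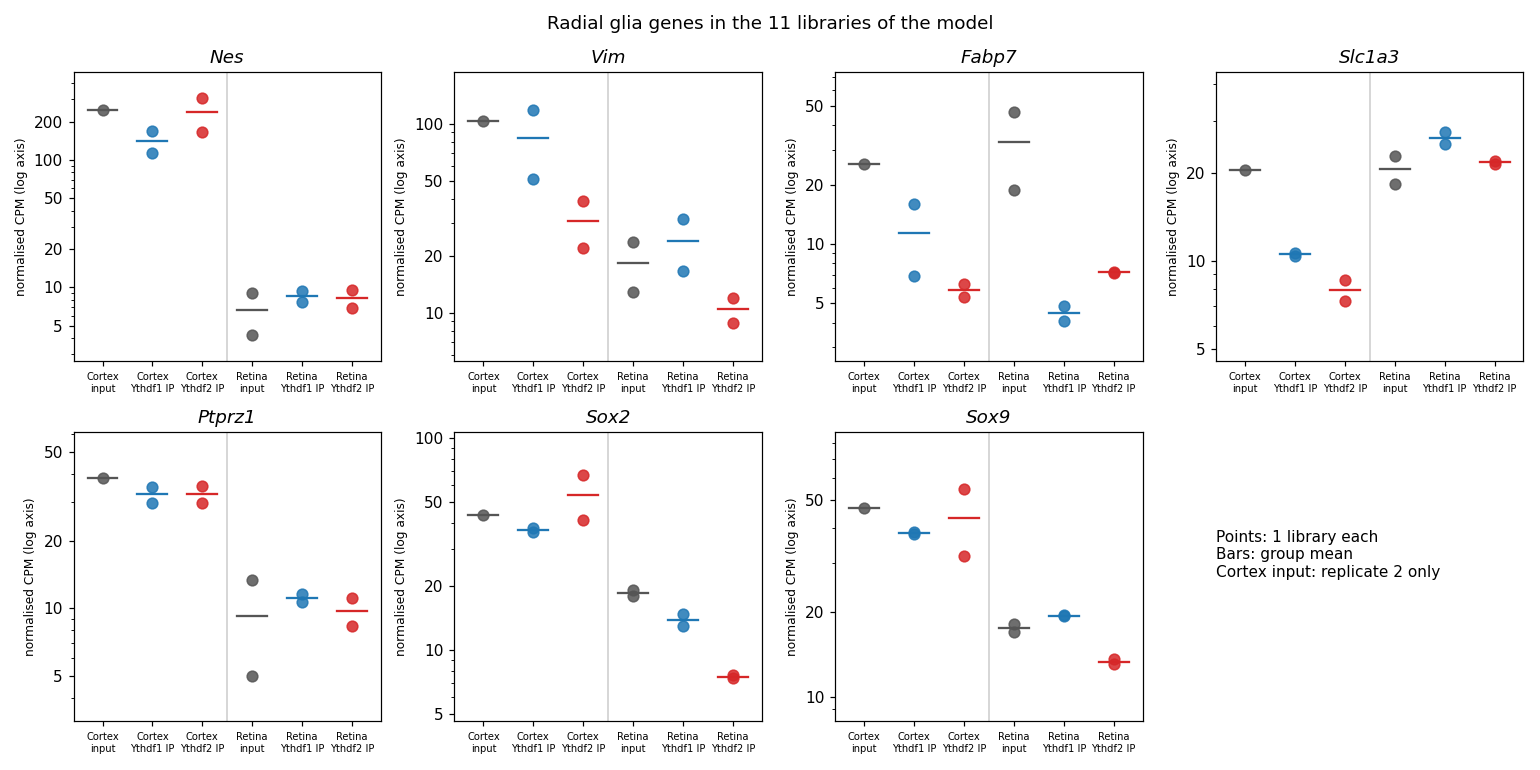
Normalised CPM (log axes, which differ between panels) of the 7 genes in the 11 libraries, 1 point per library and a bar at each group's mean. Fabp7 is lower in every IP library than in its tissue's input, Slc1a3 is below the input in the 4 cortex IPs, and Sox2 is lowest in the retina Ythdf2 IP.

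In the pull-downs Fabp7 was called lower than input in 3 of the 4 comparisons, Sox2 in the retina Ythdf2 IP and Slc1a3 in the cortex Ythdf2 IP, and no member was called higher than input in any of the 4. In the retina Ythdf1 IP, 1 of 7 members was called lower, where 13.4% of all genes tested were lower and 13.7% higher. In the retina Ythdf2 IP, 2 of 7 were lower, against 7.64% of all genes lower and 5.82% higher. In the cortex Ythdf1 IP, 0 of 7 were called, against 2.17% lower and 1.55% higher. There edgeR gave an unadjusted p under 0.05 for 2 members, Fabp7 and Slc1a3, and for 3433 of all 20278 genes. DESeq2 called 1 member lower, against 677 of 12808 genes. In the cortex Ythdf2 IP, 2 of 7 were lower, against 5.0% lower and 2.48% higher. The median log2 fold change of the 7 was 0.28 and -0.40 in the retina Ythdf1 and Ythdf2 IPs, where the median of all genes was 0, and -0.30 and -0.25 in the cortex, where it was -0.01 and 0.06. The comparisons within a tissue share its input libraries.

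**Figure D3:**
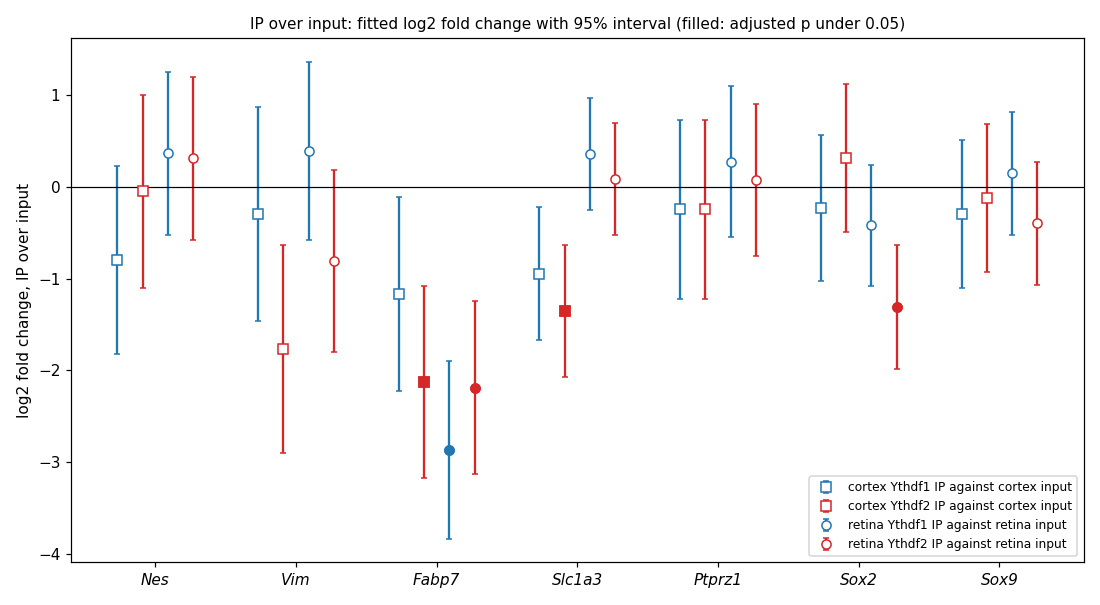
Fitted log2 fold change of IP over input for the 7 genes, with 95% intervals. Squares are cortex and circles retina, blue is Ythdf1 and red Ythdf2, and filled symbols have an edgeR adjusted p under 0.05, which holds for Fabp7 in 3 comparisons and for Sox2 and Slc1a3 in 1 each.

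Fabp7, the fatty acid carrier, was the most depleted member in all 4 pull-downs. In the retina it stood at 18.9 and 46.5 normalised CPM in the inputs, 4.08 and 4.87 in the Ythdf1 libraries and 7.14 and 7.21 in the Ythdf2 libraries. All 4 IP libraries were below both inputs, although the inputs themselves were far apart. The Ythdf1 IP mean was 13.7% of the input mean, a log2 fold change of -2.87 (SE 0.46, 95% interval -3.84 to -1.90, edgeR adjusted p = 0.000358). The Ythdf2 IP mean was 21.9% of it, a log2 fold change of -2.19 (SE 0.44, 95% interval -3.13 to -1.25, adjusted p = 0.00398). Without retina input replicate 2, in which Fabp7 was high, these were -2.08 and -1.40, and without replicate 1 they were -3.38 and -2.70; each kept an adjusted p under 0.05. In the cortex Fabp7 stood at 25.5 in the input, 6.90 and 15.9 in the Ythdf1 libraries and 6.29 and 5.38 in the Ythdf2 libraries. The Ythdf2 IP was called lower (22.9% of input, log2 -2.13, SE 0.49, adjusted p = 0.0152). The Ythdf1 IP was not called (log2 -1.17, SE 0.50, adjusted p = 0.236), and its replicates were far apart. Leaving a Ythdf2 IP with 1 library ended its call in either tissue, with adjusted p of 0.0660 without replicate 1 and 0.0595 without replicate 2 in the retina, and 0.0607 and 0.120 in the cortex. The library labelled cortex input replicate 1, put in the place of replicate 2, gave a log2 fold change of -0.77 in the cortex Ythdf2 IP (adjusted p = 0.309).

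Short transcripts as a class had low medians in 3 of these 4 pull-downs. In the retina Ythdf1 IP the median log2 fold change was -1.72 over 838 coding genes with a transcript under 1000 bases, the class that holds Fabp7, and 46.2% of them were called lower. It was -0.37 over 2928 genes of 1000 to 2000 bases, 0.14 over 6079 genes of 2000 to 4000 bases and 0.64 over 4863 genes of at least 4000 bases. The retina Ythdf2 IP had medians of -1.78, -0.47, 0.05 and 0.52 in the same classes, with 44.7% of the shortest called lower. In the cortex Ythdf2 IP they were -0.87, -0.49, -0.04 and 0.38, with 17.5% of the shortest called lower, and in the cortex Ythdf1 IP -0.02, -0.24, -0.11 and 0.11. Fabp7 was below the median of its class in all 4 comparisons. Its relative Fabp5 was lower in both retina IPs (log2 -2.33 and -1.07). The part of transcript length in the Fabp7 result was not tested.

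**Figure D4:**
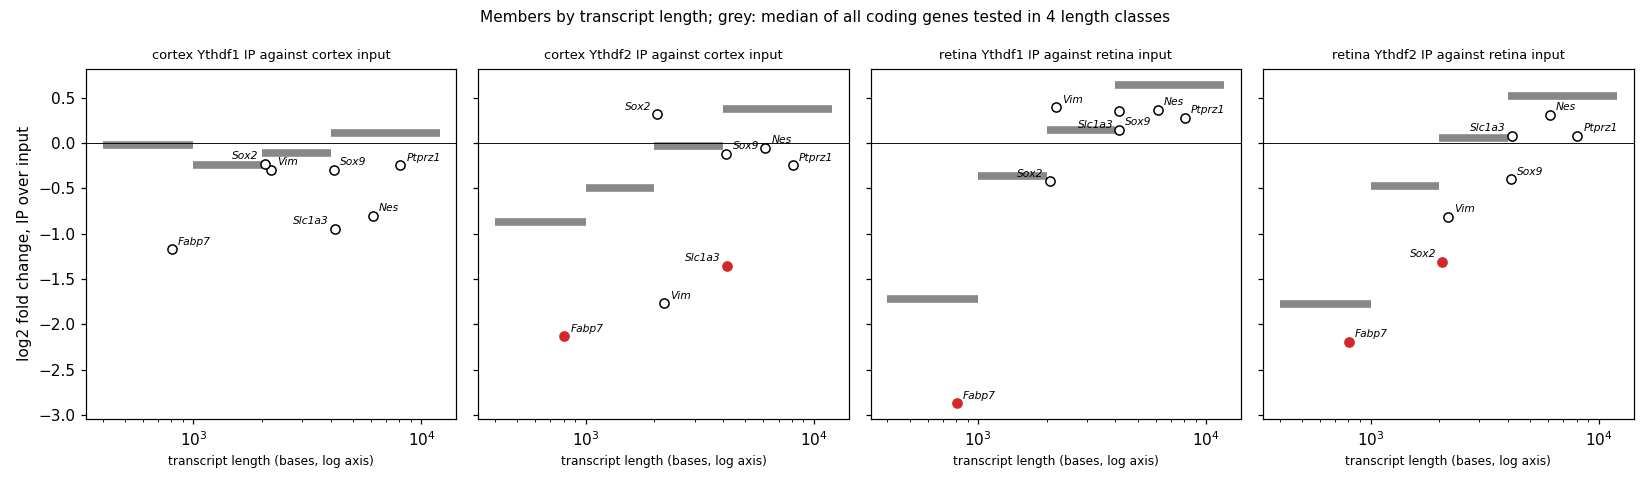
Log2 fold change of IP over input against the length of the representative transcript (log axis), with the 7 genes as points (red where the edgeR adjusted p was under 0.05) and grey bars at the median of all coding genes tested in 4 length classes. The grey bars rise from -1.72 to 0.64 in the retina Ythdf1 IP, and Fabp7 lies below the bar of its class in each panel.

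The filament genes Nes and Vim did not pass the test in any pull-down. Nes stood at 244 normalised CPM in the cortex input, 167 and 113 in the Ythdf1 libraries and 165 and 307 in the Ythdf2 libraries, where the replicates lay on both sides of the input. Its log2 fold changes were -0.80 (adjusted p = 0.430) and -0.05 (adjusted p = 0.981). In the retina Nes stood at 4.21 and 9.01 in the inputs, 7.71 and 9.32 in the Ythdf1 libraries and 6.91 and 9.47 in the Ythdf2 libraries, and the groups overlapped.

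The fitted difference between the antibodies was larger for Vim than for Nes in both tissues and passed the test in neither. In the cortex it stood at 103 in the input, 50.8 and 118 in the Ythdf1 libraries and 39.0 and 21.9 in the Ythdf2 libraries, so both Ythdf2 libraries were below the input and below both Ythdf1 libraries. The log2 fold change was -0.30 for Ythdf1 (adjusted p = 0.868) and -1.76 for Ythdf2 (SE 0.53, adjusted p = 0.0563). The latter was 0.0312 without retina input replicate 2 and 0.0311 without replicate 1. In the retina Vim stood at 23.8 and 12.9 in the inputs, 16.7 and 31.5 in the Ythdf1 libraries and 12.03 and 8.88 in the Ythdf2 libraries. Vimentin is also made by mesenchyme and vessels. Of the 8 markers of meninges and mesenchyme, 3 were called lower in the cortex Ythdf2 IP and 0 in the Ythdf1 IP, against 5.0% and 2.17% of all genes. Between the antibodies in the cortex 1 of the 8 was called, Igf2, higher in the Ythdf1 IP. The summed level of the 8 was 2903 protein-coding CPM in cortex input replicate 2, 3894 and 5098 in the Ythdf1 libraries and 1185 and 1540 in the Ythdf2 libraries, with none of the 8 at 0 in these libraries. In the 6 retina libraries it was 290 to 447, with 2 to 5 of the 8 at 0, Dcn and Lum in all. The summed level of 9 markers of endothelium and pericytes was 294 and 280 protein-coding CPM in the retina inputs. It was 1331 and 1362 in the retina Ythdf1 libraries and 803 and 829 in the retina Ythdf2 libraries. In the cortex it was 282 in the input, 256 and 217 in the Ythdf1 libraries and 182 and 325 in the Ythdf2 libraries. The 9 did not move together. In the retina Ythdf1 IP 3 were called higher (Pdgfrb, Kdr, Cldn5) and 1 lower (Rgs5), against 13.7% and 13.4% of all genes. In the retina Ythdf2 IP 2 were higher (Pdgfrb, Kdr) and 1 lower (Rgs5), against 5.82% and 7.64%. Between 0 and 3 of the 9 had 0 counts in a retina library. In either cortex IP 0 were called, against 1.55% and 2.17% (Ythdf1) and 2.48% and 5.0% (Ythdf2). The part of these cells in the Vim values was not tested.

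Slc1a3, the glutamate transporter, was lower than input in the cortex Ythdf2 IP. In the cortex it stood at 20.3 normalised CPM in the input, 10.7 and 10.4 in the Ythdf1 libraries and 8.64 and 7.29 in the Ythdf2 libraries, with all 4 IP libraries below the input. The Ythdf2 IP was called lower (39.2% of input, log2 -1.35, SE 0.34, edgeR adjusted p = 0.0228), and the Ythdf1 IP was not (log2 -0.95, SE 0.34, adjusted p = 0.151). In the retina it stood at 18.3 and 22.7 in the inputs, 27.5 and 24.9 in the Ythdf1 libraries and 21.5 and 21.9 in the Ythdf2 libraries. The 95% intervals there were -0.25 to 0.96 for Ythdf1 and -0.53 to 0.69 for Ythdf2. The cortex Ythdf2 call was lost when either Ythdf2 library was left out (adjusted p = 0.0522 without replicate 1 and 0.129 without replicate 2). It was also lost without any 1 of the 4 retina IP libraries (0.0529 to 0.0571), and with the library labelled cortex input replicate 1 as baseline the log2 fold change was -4.82.

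Ptprz1, the receptor phosphatase with the longest transcript of the 7, was not called in any pull-down. In the cortex it stood at 38.3 in the input, 34.9 and 29.6 in the Ythdf1 libraries and 29.5 and 35.1 in the Ythdf2 libraries. In the retina it stood at 5.003 and 13.4 in the inputs, 10.7 and 11.6 in the Ythdf1 libraries and 8.34 and 11.1 in the Ythdf2 libraries, all of them between the inputs. The log2 fold changes ran from -0.25 to 0.28, with 95% intervals within -1.22 to 1.10. The retina values turned on which input was used. Without retina input replicate 2 they were 1.15 in the Ythdf1 IP, which edgeR then called higher (adjusted p = 0.0179), and 0.96 in the Ythdf2 IP (0.0581). Without replicate 1 they were -0.27 and -0.47. Its ligands differed from input in some of the pull-downs. Ptn (pleiotrophin) was lower in the retina Ythdf1 IP (log2 -2.64) and in the cortex Ythdf1 (-1.78) and Ythdf2 (-2.35) IPs. It was not called in the retina Ythdf2 IP, and between the antibodies in the retina it was lower in the Ythdf1 IP (-2.80). Mdk (midkine) was lower in the retina Ythdf1 (-1.92) and Ythdf2 (-2.19) IPs and was not called in either cortex IP. The Ptn call in the cortex Ythdf1 IP was lost without either of its libraries (adjusted p = 0.0715 and 0.0613). The Mdk calls were lost without Ythdf1 replicate 2 (0.0519) and without Ythdf2 replicate 1 (0.0526) respectively. Both belong to a list of 6 ligands and partners of the member proteins. The retina Ythdf2 IP had 1 of these lower, against 7.64% of all genes. The cortex Ythdf1 and Ythdf2 IPs also had 1 lower each, against 2.17% and 5.0%. In the retina Ythdf1 IP 2 were higher and 2 lower, against 13.7% and 13.4%. The 2 higher were the adhesion gene Nrcam (1.67) and Pou3f3 (1.53), a partner of Sox2, whose call was lost without either Ythdf1 library (adjusted p = 0.0962 and 0.0891) and without retina input replicate 2 (0.110).

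Sox2, the stem cell transcription factor with a single-exon gene, was lower in the retina Ythdf2 IP. In the retina it stood at 18.04 and 19.2 normalised CPM in the inputs, 13.04 and 14.8 in the Ythdf1 libraries and 7.37 and 7.63 in the Ythdf2 libraries, 3 groups that did not overlap. The Ythdf2 IP mean was 40.3% of the input mean (log2 -1.31, SE 0.32, 95% interval -1.99 to -0.63, edgeR adjusted p = 0.0128). The Ythdf1 IP was not called (log2 -0.42, SE 0.31, adjusted p = 0.348). Without Ythdf2 replicate 1 the adjusted p was 0.131, and without replicate 2 it was 0.112. In the cortex Sox2 stood at 43.3 in the input, 36.2 and 37.6 in the Ythdf1 libraries and 40.9 and 66.9 in the Ythdf2 libraries, with log2 fold changes of -0.23 and 0.32 and adjusted p of 0.842 and 0.725. The host transcript Sox2ot had 34 and 196 counts in the retina inputs, 8 and 13 in the Ythdf1 libraries and 32 and 10 in the Ythdf2 libraries, against 128 to 479 for Sox2.

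Sox9, which acts with Sox2 and later in glia, was not called in any pull-down. It stood at 18.1 and 17.1 in the retina inputs, 19.3 and 19.6 in the Ythdf1 libraries and 13.6 and 13.05 in the Ythdf2 libraries, and at 47.0 in the cortex input, 38.7 and 37.9 in the Ythdf1 libraries and 31.7 and 54.7 in the Ythdf2 libraries. The retina Ythdf2 libraries were both below the inputs, with a log2 fold change of -0.40 (adjusted p = 0.459).

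Set directly against each other, the antibodies did not differ for any member after adjustment in either tissue, where 2.14% of all genes were higher and 3.88% lower in the Ythdf1 IP of the retina and 0.671% and 0.0345% in that of the cortex. In the retina, edgeR gave an unadjusted p under 0.05 for 2 members, both higher in the Ythdf1 IP: Vim (log2 difference 1.20, adjusted p = 0.140) and Sox2 (0.89, adjusted p = 0.109). It did so for 4523 of all 20278 genes. In the cortex it did so for Vim (1.47, adjusted p = 0.239) and Fabp7 (0.96, adjusted p = 0.514), and for 1852 of all genes. DESeq2 called 0 members in either tissue. Over all genes it called 786 higher and 1320 lower of 15560 in the retina, and 330 and 35 of 13201 in the cortex. For Vim each Ythdf1 library was above each Ythdf2 library in both tissues. The other log2 differences ran from -0.68 (Fabp7) to 0.55 (Sox9) in the retina and from -0.75 (Nes) to 0.41 (Slc1a3) in the cortex.

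Whether IP over input differed between the tissues was tested as an interaction, and no member was called, against 1.11% of all genes higher and 2.41% lower in the retina for Ythdf1 and 0.444% and 0.473% for Ythdf2. For Ythdf1 the difference, retina minus cortex, had an unadjusted p under 0.05 for Slc1a3 (log2 1.30, adjusted p = 0.120) and Fabp7 (-1.70, adjusted p = 0.187). For Ythdf2 it did for Slc1a3 (1.43, adjusted p = 0.144) and Sox2 (-1.63, adjusted p = 0.144). Of all 20278 genes, 3997 (Ythdf1) and 2831 (Ythdf2) had an unadjusted p under 0.05. DESeq2 called 1 member higher for Ythdf1, against 489 of 14381 genes. For Ythdf2 it called 1 higher and 1 lower, against 306 and 456 of 15167. The differing calls for Slc1a3 and Sox2 in the 2 tissues are therefore not shown by edgeR to be differences between the tissues.

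Ratios of the counts of 2 members within a library need no scaling between libraries. Fabp7 over Sox9 was 1.04 and 2.73 in the retina inputs, 0.211 and 0.249 in the Ythdf1 libraries and 0.525 and 0.553 in the Ythdf2 libraries. In the cortex it was 0.543 in the input, 0.178 and 0.420 in the Ythdf1 libraries and 0.198 and 0.0983 in the Ythdf2 libraries. Fabp7 was thus lower relative to Sox9 in all 8 IP libraries than in their inputs. Relative to Nes this did not hold in every library. Fabp7 over Nes was 0.104 in the cortex input and 0.0412 and 0.140 in the Ythdf1 libraries, so Ythdf1 replicate 2 was above the input. It was 0.0381 and 0.0175 in the cortex Ythdf2 libraries. In the retina it was 4.48 and 5.17 in the inputs and 0.523 to 1.03 in the IP libraries. Sox2 over Sox9 was 0.998 and 1.12 in the retina inputs, 0.675 and 0.753 in the Ythdf1 libraries and 0.542 and 0.584 in the Ythdf2 libraries. In the cortex the order was the other way, with 0.922 in the input, 0.937 and 0.992 in the Ythdf1 libraries and 1.29 and 1.22 in the Ythdf2 libraries. Vim over Nes was 0.423 in the cortex input, 0.303 and 1.04 in the Ythdf1 libraries and 0.236 and 0.0715 in the Ythdf2 libraries. In the retina it was 5.64 and 1.44 in the inputs, 2.16 and 3.38 in the Ythdf1 libraries and 1.74 and 0.937 in the Ythdf2 libraries, so the inputs overlapped both IPs and the Ythdf1 libraries were above the Ythdf2 libraries.

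**Figure D5:**
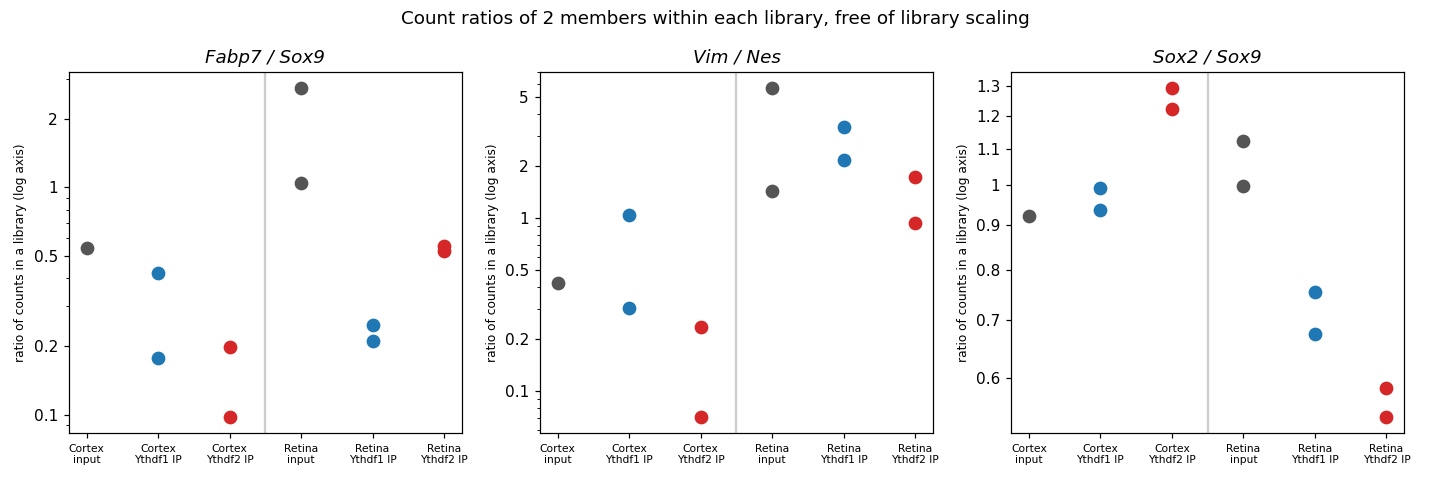
Ratio of the counts of 2 members within a library (log axes), 1 point per library, for Fabp7 over Sox9, Vim over Nes and Sox2 over Sox9. Fabp7 over Sox9 is lower in every IP library than in the inputs of its tissue, and Sox2 over Sox9 lies below the inputs in the 4 retina IPs and above the input in the 4 cortex IPs.

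A longer list of 35 other genes of radial glia and neural stem cells, all of which passed the filter, had members called in both directions in each pull-down. In the retina Ythdf1 IP 9 were higher and 6 lower (median log2 0.33), against 13.7% and 13.4% of all genes. Higher were the Notch receptor gene Notch2 (2.87) and the atypical cadherin gene Fat1 (2.58), and lower were Dbi (-2.40), which encodes an acyl-CoA binding protein, and Msi2 (-2.57), an RNA-binding protein of stem cells. In the retina Ythdf2 IP 4 were higher and 4 lower (median 0.20), against 5.82% and 7.64% of all genes, among them Notch2 (1.77) and Fat1 (1.604) higher, and Dbi (-2.28) and Msi1 (-1.47) lower. In the cortex Ythdf1 IP 1 was higher, the Notch target Hes5 (2.35), and 2 were lower, Id4 (-2.26) and the patterning factor Emx2 (-1.81), with a median of -0.11, against 1.55% and 2.17% of all genes. In the cortex Ythdf2 IP 3 were higher and 4 lower (median -0.26), against 2.48% and 5.0% of all genes, with Notch2 (1.85) and Hes5 (1.78) higher and Id4 (-2.04) and Dbi (-1.67) lower. The Notch2, Fat1, Dbi and Msi2 calls in the retina Ythdf1 IP held without each library in turn, as did Dbi in the retina Ythdf2 IP. Without retina Ythdf2 replicate 1 the retina Ythdf2 IP had 0 higher and 1 lower, and without any 1 of the retina IP libraries the cortex Ythdf2 IP had 0 higher. The lowest counts otherwise were 5 higher without retina Ythdf1 replicate 2 and 3 lower without replicate 1 for retina Ythdf1, 0 higher without cortex Ythdf1 replicate 2 for cortex Ythdf1, and 1 lower without cortex Ythdf2 replicate 2 for cortex Ythdf2. Without retina input replicate 1, as without replicate 2, the cortex counts rose, to 3 higher and 5 lower for Ythdf1 and 5 higher and 8 lower for Ythdf2, and without retina input replicate 2 the retina Ythdf2 IP had 6 higher. Hes5 in the cortex Ythdf1 IP lost its call without Ythdf1 replicate 2 (adjusted p = 0.0709) and Emx2 without either Ythdf1 library (0.200 and 0.0941). With the library labelled cortex input replicate 1 as the baseline, more of the 35 were called in both directions in each cortex IP. The median log2 fold change of all genes tested was then 0.61 in the cortex Ythdf1 IP and 0.82 in the cortex Ythdf2 IP. On that baseline Id4 turned to 0.64 and 0.94 in the cortex Ythdf1 and Ythdf2 IPs, and Emx2 to 2.13 in the Ythdf1 IP.

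Among 17 close relatives of the members, the retina Ythdf1 IP had 4 higher and 2 lower, against 13.7% and 13.4% of all genes tested. The neutral amino acid transporter Slc1a4 (2.14) and Sox3 (1.59) were higher there, and Fabp5 (-2.33) and the neurofilament Nefm (-1.41) lower. The retina Ythdf2 IP had 3 higher and 3 lower, against 5.82% and 7.64% of all genes. The glutamate transporter Slc1a2 (1.83) and the filament Ina (1.26) were among the higher and Nefm (-2.21) among the lower. Fabp3, the third fatty acid carrier, had 52 and 55 counts in the retina inputs and 0 in both Ythdf2 IPs. The cortex Ythdf1 IP had 0 called, against 1.55% of all genes higher and 2.17% lower. The cortex Ythdf2 IP had Slc1a4 (2.05) alone, against 2.48% higher and 5.0% lower. Of these, Sox3, Nefm, Slc1a2 and Ina lost their call when 1 library of the IP was left out (adjusted p = 0.0551 for Sox3 without Ythdf1 replicate 1, and 0.0652 to 0.197 for the others), and Slc1a4 did in the cortex Ythdf2 IP without replicate 2 (0.0535). Without retina input replicate 2, Nefm stood at -0.23 and -1.03.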

How the data were processed

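RNA from dissociated cortices and retinas was immunoprecipitated with the EZ-Magna RIP kit and made into stranded TruSeq libraries, per the labels' protocols. The authors' deposited table holds whole-number counts per Ensembl gene, and a second deposited table holds FPKM. STAR 2.5, HTSeq and GRCm38 are named per the submitters' processing notes; which annotation release was counted, and with which strand setting, is not given in the sources used here. Identifiers were matched to GENCODE M21 (52403 of 52550), which also gave transcripts. The counts of 11 libraries (all but cortex input replicate 1, whose profile goes against its label) were fitted with edgeR 4.0.16 in R 4.3.3: genes with low counts removed (filterByExpr, minimum count 10, minimum total 15, 20278 genes kept, all 7 members among them), TMM factors (0.643 to 2.75), 1 mean per group, robust quasi-likelihood tests with 5 residual degrees of freedom. P-values are two-sided and adjusted by Benjamini-Hochberg over all genes tested, with a threshold of 0.05. FPKM served to compare genes within a library. The fit was tested on simulated data. Alternatives were other scalings, no filter, single tissues, all 12 libraries, a replicate block, each library left out, DESeq2 1.42.0 and limma 3.58.1 on log2(FPKM + 1).

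The members and all gene lists were chosen with earlier results of these data known. The text names the 7 members in every comparison and, from each list it describes, the 2 higher and 2 lower called genes of smallest p in each comparison of an IP with input. The genes most like the members were searched by Pearson correlation among named genes with a mean of at least 5 normalised CPM. Counts limit precision for counting error only. Replicate numbers were checked for pairing: the 10 correlations of same-numbered deviations lay between -0.0678 and 0.0424, so the numbers were not taken to pair libraries.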

Additional observations from a re-analysis of the deposited data

Results flagged for a closer look

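The library labelled cortex input replicate 1 is outside the 11 libraries of the model and serves only as an alternative baseline, and all 7 genes had counts in it above the limit of 3 counts that a count of 0 allows. Its counts were 1673 for Slc1a3, 1069 for Ptprz1, 145 for Nes, 91 for Sox9, 88 for Vim, 74 for Fabp7 and 31 for Sox2. In cortex input replicate 2 they were 1592, 2995, 19126, 3675, 8093, 1997 and 3390 in the same order, so Slc1a3 alone had more counts in the library labelled replicate 1. Per length, Slc1a3 (5.32 FPKM) and Ptprz1 (2.04) led there, and Sox2 (0.400) was last.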

How the results depend on the processing

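Of 1239 member values recomputed under an alternative, 1059 kept their direction and side of the threshold, 29 lost and 55 gained the threshold and 96 changed sign, 56 of these on leaving out a library. Fabp7 in the retina Ythdf1 IP was called in all 20 alternatives (adjusted p up to 0.0230). In the retina Ythdf2 IP Fabp7 was called in 16 of 20 (up to 0.0963) and Sox2 in 15 of 20 (up to 0.418). In the cortex Ythdf2 IP Fabp7 was called in 16 of 20 (up to 0.309) and Slc1a3 in 12 of 20 (up to 0.181). Between inputs Nes and Ptprz1 were called in 19 of 19, Vim and Sox9 in 17 and Sox2 in 12 in the direction first found. The cause of each change below was not tested.

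Members called lower in the retina Ythdf2 IP went from 2 to 0 with all 12 libraries or limma on FPKM and 1 with library totals. Over all genes, 325 of 18458 (all 12 libraries), 912 of 20278 (limma) and 711 of 20278 (library totals) were then lower. In the cortex Ythdf1 IP members called lower went from 0 to 1 with DESeq2, 4 with library totals and 7 with limma. Over all genes, 677 of 12808 (DESeq2), 4352 of 20278 (library totals) and 7791 of 20278 (limma) were lower there. In the cortex Ythdf2 IP members called lower went from 2 to 0 with all 12 libraries and 1 with library totals. There 0 of 18458 and 427 of 20278 genes were lower. Between antibodies, 1 member was called higher in Ythdf1 in each tissue without the filter, and 2 (library totals) or 4 (limma) lower in the cortex. Over all genes, 857 (retina) and 337 (cortex) of 31092 were higher without the filter. In the cortex 2709 (library totals) and 7973 (limma) of 20278 were lower. For the tissue difference, Ythdf1 had 1 higher with DESeq2 or library totals and 2 with limma, and Ythdf2 1 higher and 1 lower with DESeq2. Over all genes, Ythdf1 had 489 of 14381 (DESeq2), 1922 of 20278 (library totals) and 4146 of 20278 (limma) higher. Ythdf2 had 306 higher and 456 lower of 15167 with DESeq2. Between inputs 5 members lower became 2 with all 12 libraries, where 740 of 18458 genes were lower.

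Leaving out or swapping a library gave 0 to 1 members higher in the retina Ythdf1 IP, 0 to 2 lower in the retina Ythdf2 IP, 0 to 4 higher and 0 to 2 lower in the cortex Ythdf1 IP, 0 to 3 of each in the cortex Ythdf2 IP, 0 to 1 higher between antibodies in the retina, 0 to 2 higher and 0 to 5 lower for the Ythdf1 tissue difference, 0 to 2 higher and 0 to 4 lower for the Ythdf2 one, and 0 to 2 higher and 3 to 5 lower between inputs.

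Sign changes on leaving out a library came with these ranges. Retina Ythdf1 IP: Nes -0.084 to 1.01, Vim -0.14 to 0.89, Ptprz1 -0.27 to 1.15, Sox9 -0.072 to 0.19. Retina Ythdf2 IP: Nes -0.14 to 0.95, Slc1a3 -0.067 to 0.24, Ptprz1 -0.47 to 0.96. Cortex Ythdf1 IP: Nes -1.18 to 2.79, Vim -1.02 to 2.75, Fabp7 -1.89 to 0.11, Sox2 -0.28 to 3.08, Sox9 -0.38 to 1.58, Id4 -2.45 to 0.64, Emx2 -2.07 to 2.13. Cortex Ythdf2 IP: Nes -0.55 to 3.61, Vim -2.24 to 1.36, Sox2 -0.068 to 3.70, Sox9 -0.55 to 1.83, Id4 -2.13 to 0.94, Slc1a4 -0.10 to 2.20. Between antibodies: Nes -0.15 to 0.30 in the retina, Ptprz1 -0.23 to 0.14 and Sox9 -0.51 to 0.28 in the cortex. Ythdf1 tissue difference: Nes -2.63 to 1.81, Vim -2.59 to 1.42, Ptprz1 -0.027 to 2.29, Sox9 -1.65 to 0.48. Ythdf2 tissue difference: Nes -3.38 to 1.01, Vim -2.28 to 1.46, Fabp7 -1.51 to 0.73, Ptprz1 -0.22 to 2.15, Sox9 -2.33 to 0.15. Inputs: Vim -2.996 to 0.72, Fabp7 -0.43 to 1.78, Slc1a3 -3.38 to 0.16, Sox2 -1.26 to 2.23, Sox9 -1.46 to 0.60.

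Other sign changes were as follows. TMM on protein-coding genes gave Sox9 -0.028 in the retina Ythdf1 IP, Slc1a3 -0.018 and Ptprz1 -0.017 in the retina Ythdf2 IP, and, between antibodies, Nes -0.018 in the retina and Ptprz1 0.022 in the cortex. With all 12 libraries the cortex Ythdf1 IP had Nes 0.10, Vim 0.56, Sox2 0.64 and Sox9 0.38, the cortex Ythdf2 IP Nes 0.84 and Sox9 0.54, the cortex antibody contrast Ptprz1 0.015, the Ythdf1 tissue difference Vim -0.18 and Sox9 -0.24, the Ythdf2 one Nes -0.53, and the inputs Slc1a3 -2.58. Nes in the cortex Ythdf2 IP was 0.047 with DESeq2 or RLE factors. Nes between antibodies in the retina was -0.080 with the retina alone, -0.0035 with DESeq2 or RLE factors, -0.12 with library totals and -0.036 with limma. Library totals and limma gave -0.41 and -0.35 for Fabp7 and -0.83 and -0.48 for Slc1a3 between antibodies in the cortex, 1.22 and 1.24 for Sox2 in the Ythdf1 tissue difference, 0.29 and 0.51 for Fabp7 in the Ythdf2 one, and -1.45 and -1.51 for Fabp7 and -1.81 and -1.31 for Slc1a3 between inputs. Limma alone gave Fabp7 0.23 and Sox9 0.15 in the Ythdf1 and Ythdf2 tissue differences, and no filter gave Slc1a3 -0.10 between inputs. With the replicate block, Nes in the cortex Ythdf2 IP was 0.11 and Ptprz1 between antibodies in the cortex 0.033; it ended the Sox2 call between inputs and no other member's call over input.

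Over all genes, the calls ranged from 1625 (all 12 libraries) to 6030 (DESeq2) around 5505 in the retina Ythdf1 IP, 377 to 3535 around 2730 in the retina Ythdf2 IP, 1 to 7874 around 755 in the cortex Ythdf1 IP and 2 to 5621 around 1517 in the cortex Ythdf2 IP. Library totals moved the median of all genes to -1.38 in the cortex Ythdf1 IP and -1.99 between inputs and split their calls into 56 higher and 4352 lower, against 314 and 441, and 335 and 8525, against 1789 and 2242.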

Other observations

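Genes of postmitotic neurons, the cells that radial glia give rise to, were called in both retina pull-downs and by edgeR in neither cortex pull-down. Of 14 genes of postmitotic neurons, 2 were higher and 5 lower in the retina Ythdf1 IP, where 13.7% of all genes tested were higher and 13.4% lower. Tubb3 (log2 1.59), a neuronal tubulin, and the transcription factor gene Bcl11b (1.88) were higher, and Gap43 (-1.81), of growing axons, and the synaptic gene Snap25 (-2.08) were among the lower. In the retina Ythdf2 IP 3 of the 14 were lower, Gap43 (-2.18) and Stmn2 (-1.49) among them, and 0 higher, against 7.64% of all genes lower and 5.82% higher. Without either Ythdf1 library 2 of the 14 were lower in the retina Ythdf1 IP, and without Ythdf2 replicate 1 there was 1 in the retina Ythdf2 IP. Without retina input replicate 2 the retina Ythdf2 IP had 3 higher. For the 0 calls in the cortex, the shares of all genes were 1.55% higher and 2.17% lower (Ythdf1) and 2.48% and 5.0% (Ythdf2). In each cortex IP edgeR gave an unadjusted p under 0.05 for 2 of the 14, and for 3433 (Ythdf1) and 4307 (Ythdf2) of all 20278 genes. DESeq2 called 0. Tested as an interaction, the difference between the tissues was called for 0 of the 14 with either antibody. Of 14 genes of retinal neurons, 2 were lower in each retina IP, Sncg (-2.85 and -3.33) and Onecut1 (-2.24 and -2.09), and 1, Nrl (-4.95), in the cortex Ythdf2 IP. Nrl had 0 counts in both cortex Ythdf2 and both cortex Ythdf1 libraries, so its value rests on its counts in the single cortex input. Without retina Ythdf2 replicate 1 none of the 14 was called by edgeR in the retina Ythdf2 IP.

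Of 10 genes of intermediate progenitors, Neurog1 (log2 2.67) and Neurog2 (1.31), which drive neuronal fate, were higher and Elavl4 (-1.86) and Mfap4 (-1.14) lower in the retina Ythdf1 IP, and Mfap4 (-1.67) was lower in the retina Ythdf2 IP. Of all genes tested, 13.7% were higher and 13.4% lower in the retina Ythdf1 IP, and 5.82% and 7.64% in the retina Ythdf2 IP. In the cortex edgeR called 0 of the 10 in either IP. The shares of all genes there were 1.55% higher and 2.17% lower for Ythdf1 and 2.48% and 5.0% for Ythdf2. An unadjusted p under 0.05 was given by edgeR for 2 in each, and for 3433 (Ythdf1) and 4307 (Ythdf2) of all 20278 genes. DESeq2 called 1 higher in the Ythdf1 and 2 higher in the Ythdf2 IP, against 841 of 12808 and 1226 of 13594 genes. Of 8 genes of dividing cells, the replication genes Mcm2 (1.05) and Pcna (-2.12) went opposite ways in the retina Ythdf1 IP, where Cdk1 (-1.04) was also lower. Mki67 (-2.33) was lower in the retina Ythdf2 IP and Pcna (-1.70) in the cortex Ythdf2 IP. The Mcm2 call was lost without either retina Ythdf1 library and the Mki67 call without either retina Ythdf2 library, and both without retina input replicate 2. Of 10 genes of Müller glia and astrocytes, Car2, a carbonic anhydrase, was lower in the retina Ythdf1 IP (-2.52) and in the cortex Ythdf1 (-1.80) and Ythdf2 (-2.54) IPs, and the other 9 were not called in any of the 4. The Car2 call in the cortex Ythdf1 IP was lost without either of its libraries. The summed level of the genes of dividing cells was 55.5 protein-coding CPM in the library labelled cortex input replicate 1 and 2725 in cortex input replicate 2. That of Müller glia and astrocytes was 5799 and 303. With the former library as the baseline, the calls of both lists changed in each cortex IP. The median log2 fold change of all genes tested was then 0.61 in the cortex Ythdf1 IP and 0.82 in the cortex Ythdf2 IP. The edgeR adjusted p-values behind the calls of genes named under these other observations ran up to 0.0464. Nefm in the retina Ythdf1 IP, named earlier, had 0.0474.

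The genes whose log2 CPM over the 11 libraries ran most like the mean of the 7 members, among 6312 searched, were Safb (r = 0.976), Mdc1 (0.976), Pum3 (0.974), Tgs1 (0.971), Hsp90b1 (0.971) and Rbm28 (0.967). The gene most like each member was Myo10 for Nes (0.989), Eprs for Ptprz1 (0.987), Ctnnd1 for Sox9 (0.983), Nolc1 for Sox2 (0.958), Uqcrb for Fabp7 (0.955), Ncam1 for Slc1a3 (0.953) and Idh2 for Vim (0.948). No other radial glia gene of the list was among these 13. The libraries fall into 2 tissues and share inputs, so these values describe the pattern and carry no p.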
